A study of Mus musculus with 20 samples.

Results

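Toll-like receptors are the germline-encoded sensors with which cells of the innate immune system recognise microbial and self-derived molecules. The 8 genes described here are 6 of these receptors (Tlr2, Tlr3, Tlr4, Tlr7, Tlr9 and Tlr13), the co-receptor Cd14 and the signalling adaptor Myd88. They were chosen by symbol, each taken from the probe set that names that gene alone and has the highest mean over the arrays, and they make 8 of the 18194 genes measured. All were found, on 14 probe sets in all, and 3 of them (Tlr3, Tlr4 and Tlr7) had more than 1 probe set.

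RNA of the motor and the sensory cortex of 10 female C57Bl6 mice was hybridised to Affymetrix arrays, 20 in all, with a pair of arrays from each mouse. There were 6 mice with experimental autoimmune encephalomyelitis (EAE), an autoimmune model of multiple sclerosis with ascending paralysis, and 4 healthy mice from the same cages. Both conditions were spread over 2 cohorts, each with 3 EAE and 2 healthy mice. EAE was raised in mice aged 8 to 12 weeks with the myelin oligodendrocyte glycoprotein peptide MOG35-55 under the skin, 100 µg in the hind flanks and 50 µg at the base of the tail, and with 400 ng of pertussis toxin on days 0 and 3. These injections are given for the EAE mice, and no mock injection or adjuvant is named for the healthy ones, so EAE against healthy compares the immunisation together with the disease. The EAE mice had average grades of 2.5 to 3.5 and were collected on days 18 to 21 by one label and on day 21 by the protocol, after perfusion with saline and then RNAlater. The same age of 8 to 12 weeks and collection on day 21 are given for the healthy mice. The labels name no transgene or deletion, and the tissue was dissected from 1 mm slices, so each array averages over neurons, glia, vessels and any cells that had entered the tissue. Markers of neurons and astrocytes, 5 genes each, had mean levels (averaged over the list on each array) with group medians of 13.7 to 13.8 and 12.4 to 12.5 on the log2 scale.

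All values are log2 expression as deposited, so a difference of 1 is a doubling. Array medians lay between 8.22 and 8.32. The sensory cortex array of EAE mouse 3 stood apart. The dimmest 25% of genes lay on it at a median of 0.20 above the mean of the other arrays of its group, with an SD of 0.35, against medians of -0.07 to 0.13 and SDs of at most 0.20 for the other 19 arrays. Of the members Tlr2, Tlr4 and Tlr13 belong to that dimmest 25%. The next 25% of genes, with Tlr7, Tlr9, Cd14 and Myd88, had an SD of 0.31 on it, against at most 0.22 on the other 19 arrays. The mean correlation of this array with its group was 0.9916, against 0.9948 to 0.9979. It also held the highest Tlr4 and Tlr9 and the lowest Cd14 and Myd88 of its group, and the sensory differences of these 4 members are also given without mouse 3. No detection calls were used here. The number of arrays limits the precision, and p-values for EAE against healthy rest on the spread between mice. For comparisons of the regions they rest on the spread of each mouse's own motor minus sensory difference.

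Each Toll-like receptor has an outer domain of leucine-rich repeats that binds the ligand and an inner TIR domain that recruits adaptors. Tlr2 and Tlr4 sit on the cell surface and recognise bacterial lipoproteins and lipopolysaccharide, with Cd14 handing over the ligand, while Tlr3, Tlr7, Tlr9 and Tlr13 sit in endosomes and recognise nucleic acids. All of them except Tlr3 signal through Myd88 to NF-kB and interferon regulatory factors, and Tlr3 signals through Ticam1. In the brain they are known mainly from microglia and macrophages, with Tlr3 also in astrocytes and neurons.

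The promoters of Tlr2 and Tlr3 are shown because these were the members that passed a test, Tlr2 between EAE and healthy mice and Tlr3 between the cortical areas. Each runs from 250 bases before the RefSeq start to 50 after it, on GRCm38.p6. That of Tlr2 is chr3:83841559-83841858 and that of Tlr3 chr8:45410331-45410630, both on the minus strand and printed 5′ to 3′ along the gene. Capitals mark matches to the NF-kB motif and to AANNGAAA, a core of interferon response elements, on either strand.
Tlr2: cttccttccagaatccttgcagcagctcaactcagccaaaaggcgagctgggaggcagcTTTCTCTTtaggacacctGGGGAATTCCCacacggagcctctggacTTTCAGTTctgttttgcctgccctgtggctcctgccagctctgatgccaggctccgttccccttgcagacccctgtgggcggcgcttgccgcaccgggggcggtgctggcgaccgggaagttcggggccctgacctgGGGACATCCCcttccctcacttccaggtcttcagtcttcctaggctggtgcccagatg
Tlr3: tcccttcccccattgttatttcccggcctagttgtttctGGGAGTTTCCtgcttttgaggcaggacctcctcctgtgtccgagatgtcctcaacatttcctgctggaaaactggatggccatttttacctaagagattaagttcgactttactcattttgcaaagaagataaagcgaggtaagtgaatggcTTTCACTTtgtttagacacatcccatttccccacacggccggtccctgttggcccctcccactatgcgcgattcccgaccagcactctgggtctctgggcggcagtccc
The Tlr2 promoter held 3 NF-kB matches, 2 of which overlap in the run GGGGAATTCCC, and 2 matches to AANNGAAA. That of Tlr3 held 1 of each. The NF-kB motif was found in 8.46% and AANNGAAA in 23.9% of all 32851 promoters of the same length. The motifs TGANTCA, of AP-1, and GAGGAA, of PU.1, were in 7.81% and 28.3% of all promoters and in neither of these. Of the other members, the promoters of Tlr9, Tlr13 and Myd88 were examined, and those of Tlr4, Tlr7 and Cd14 were not. AANNGAAA occurred once in the promoter of Myd88 and TGANTCA once in that of Tlr9. GAGGAA occurred once in that of Tlr13 and in 2 places in that of Tlr9. The motifs were chosen after the sequences and earlier results had been seen, and a match describes letters, not a bound site.

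**Figure D1:**
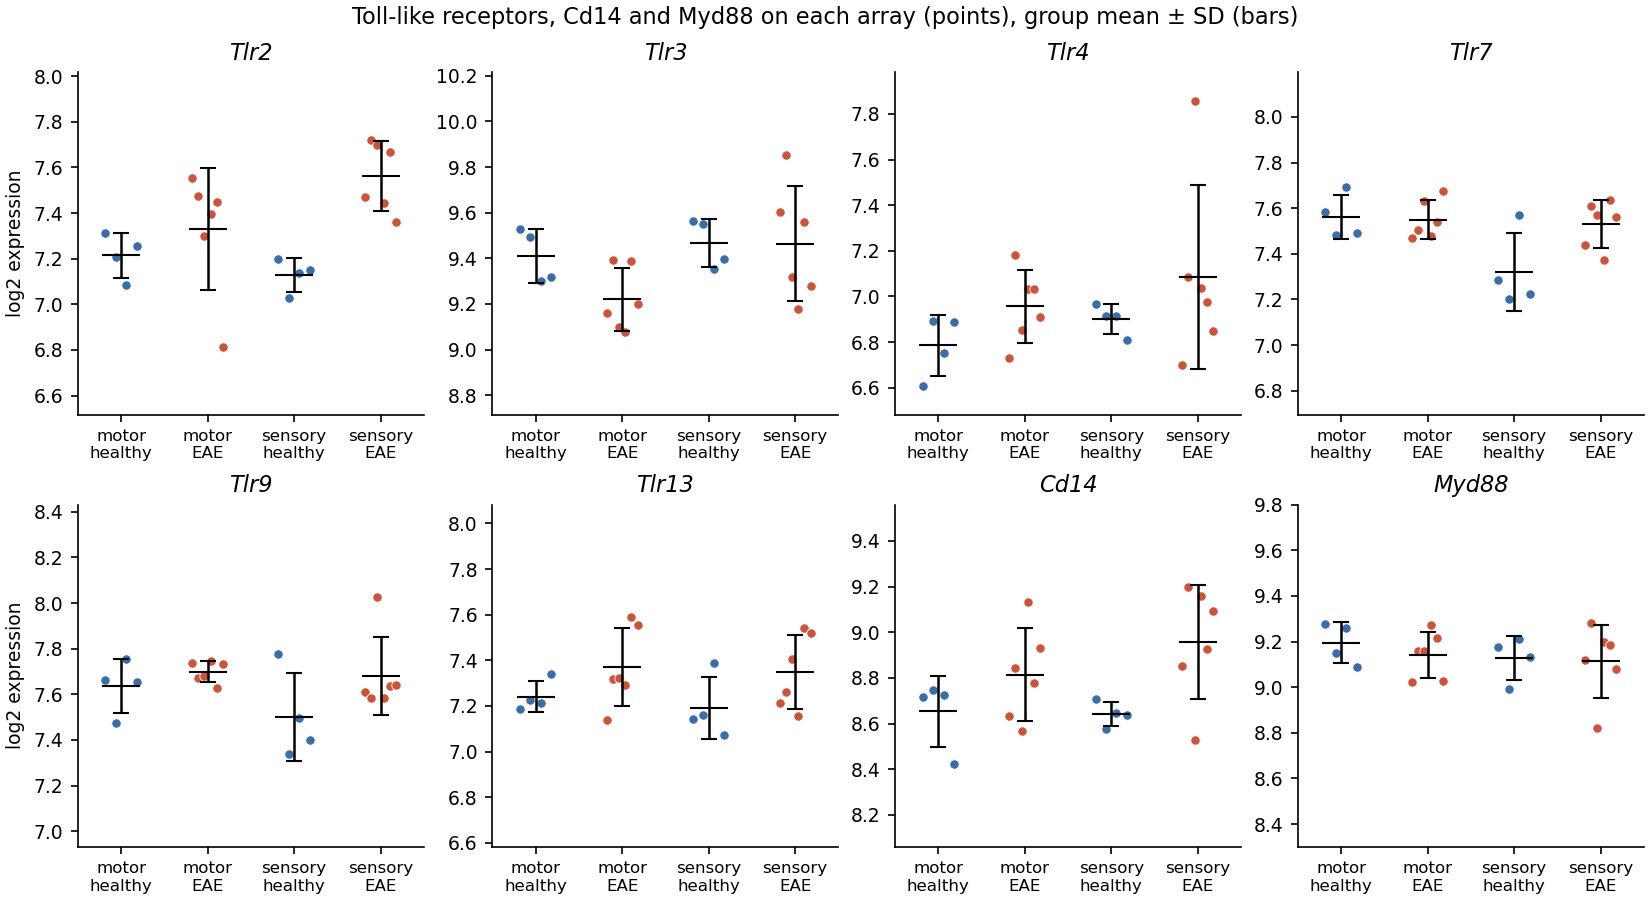
Log2 expression of the 8 members on each of the 20 arrays (y axis, every panel spanning 1.5 log2 units), with the 4 groups of 4 or 6 mice on the x axis, points for single arrays and bars for the group mean ± SD. In the panel of Tlr2 the 6 sensory EAE arrays sit between 7.36 and 7.72, all above the sensory healthy arrays, and in the panel of Tlr4 the array at 7.86 is that of EAE mouse 3.

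Tlr2 was higher in the sensory cortex of EAE mice. Tlr2 pairs with Tlr1 or Tlr6 on the surface of myeloid cells to recognise lipopeptides. In sensory cortex the healthy arrays read 7.20, 7.03, 7.14 and 7.15, and the EAE arrays ran from 7.36 through a median of 7.57 to 7.72. Every EAE mouse therefore lay above every healthy mouse. The mean rose from 7.13 ± 0.07 (SD, n = 4) to 7.56 ± 0.15 (SD, n = 6), by 0.43 ± 0.08 (SE, log2; 95% interval 0.26 to 0.61), which is 1.35-fold, with a limma adjusted p of 0.0283 over all genes. In bulk tissue more cells of a type and more RNA per cell, or fewer and less, cannot be told apart. It was the 1 member of 8 that passed in sensory cortex, where 0.901% of all genes were called higher and 1.51% lower. Complete separation of the groups with EAE higher was met by 2.45% of genes, and with EAE lower by 4.04%. The estimate stayed between 0.38 and 0.47 whichever mouse was left out, but the adjusted p passed 0.05 in 6 of 10 such fits: it was 0.056 with EAE mouse 2 left out and 0.0678 with EAE mouse 5 left out. Leaving out healthy mouse 1, 2, 3 or 4 gave 0.0637, 0.0943, 0.106 or 0.095. With EAE mouse 3 left out it was 0.0322. Within cohort 1 the difference was 0.52 and within cohort 2 it was 0.35, with adjusted p of 0.948 and 0.124.

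In motor cortex Tlr2 did not pass. The healthy arrays read 7.31, 7.21, 7.08 and 7.25, and the EAE arrays 7.55, 7.47, 7.30, 7.40, 7.45 and 6.81. Of the 6 EAE mice, 4 lay above every healthy mouse and mouse 6 lay below every one. The difference was 0.12 ± 0.11 (SE, log2; interval -0.13 to 0.36), with an adjusted p of 0.669, and it was 0.22 ± 0.07 without EAE mouse 6, with an adjusted p of 0.166. Across motor cortex 0.517% of genes were called higher and 1.74% lower, and the groups separated with EAE higher in 1.48% and lower in 4.19%, a separation that no member showed there. With both regions of a mouse averaged, Tlr2 stood at 0.27 ± 0.08 with an adjusted p of 0.0658, in a comparison that called 7.87% of all genes in either direction and no member. Without EAE mouse 6 the adjusted p was 0.00648, the 1 of 18 alternatives that called it, and it ran up to 0.381 in the others. That mouse was singled out by its own low motor Tlr2 value, so the fits without it are descriptions.

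Tlr4, the receptor for lipopolysaccharide, passed in neither region. In motor cortex the healthy arrays read 6.61, 6.89, 6.75 and 6.89 and the EAE arrays ran from 6.73 through a median of 6.97 to 7.18, with 4 of 6 above every healthy mouse. The difference was 0.17 ± 0.09 with an adjusted p of 0.375. In sensory cortex the healthy arrays read 6.97, 6.91, 6.92 and 6.81 and the EAE arrays 6.70, 7.08, 7.86, 7.04, 6.98 and 6.85. The groups overlapped, and EAE mouse 3 lay far above all others. The difference of 0.18 ± 0.18 (interval -0.21 to 0.58) had an adjusted p of 0.601, and without EAE mouse 3 it was 0.03 ± 0.08. The other 3 probe sets of Tlr4 were dimmer, with means of 4.64 to 5.60 against 6.95, and gave -0.05 to -0.02 in motor and -0.08 to 0.12 in sensory cortex, so the direction seen on the brightest was not shared by all.

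Cd14, the co-receptor that brings lipopolysaccharide to Tlr4 and lipopeptides to Tlr2, had higher values in EAE mice without passing the test. In sensory cortex the healthy arrays read 8.71, 8.58, 8.65 and 8.64, and the EAE arrays 8.85, 9.20, 8.53, 9.16, 8.93 and 9.09. Of the 6 EAE mice, 5 lay above every healthy mouse, and mouse 3 lay below every one. The difference was 0.32 ± 0.11 (SE, log2; interval 0.06 to 0.57), which is 1.25-fold, with an unadjusted p of 0.0191 and a limma adjusted p of 0.175. Without EAE mouse 3 it was 0.40 ± 0.08 with an adjusted p of 0.0311. In motor cortex the healthy arrays read 8.71, 8.75, 8.73 and 8.42 and the EAE arrays ran from 8.57 through 8.81 to 9.13, with overlap. The difference there was 0.16 ± 0.10 (adjusted p 0.493) and was 0.05 ± 0.10 without healthy mouse 4, whose array was processed on the second day. For both regions averaged it was 0.24 ± 0.10 (adjusted p 0.156), and 0.30 without EAE mouse 3 (adjusted p 0.0483). Within cohort 1 the motor difference was -0.05 and within cohort 2 it was 0.37.

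Tlr3, the endosomal receptor for double-stranded RNA, was lower in motor than in sensory cortex on its brightest probe set. In every one of the 10 mice its motor value lay below its sensory value. The healthy mice differed by -0.03, -0.06, -0.05 and -0.08, and the EAE mice by -0.46 to -0.08 with a median of -0.20. Over all mice motor cortex was lower by a log2 difference of -0.17 ± 0.05 (SE; interval -0.27 to -0.07), with a limma adjusted p of 0.0312 with the mouse as a block. This comparison called 7.67% of genes higher and 5.56% lower in motor cortex, and Tlr3 was the 1 member of 8 among them. The adjusted p was 0.0606, 0.0642 and 0.0616 without EAE mice 1, 2 and 5, and 0.0501 without both mice that had an array of the second processing day. Among the healthy mice alone the difference was -0.06 (adjusted p 0.595) and among the EAE mice alone -0.24 (adjusted p 0.0829). The second probe set of Tlr3 was not tested between the regions.

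Between conditions Tlr3 was not called. In motor cortex the healthy arrays read 9.53, 9.49, 9.30 and 9.32 and the EAE arrays 9.16, 9.39, 9.10, 9.08, 9.39 and 9.20. Of the 6 EAE mice 4 lay below every healthy mouse, and the groups overlapped. The difference was -0.19 ± 0.08 (SE, log2; interval -0.36 to -0.02), with an unadjusted p of 0.0323 and an adjusted p of 0.26. In sensory cortex the healthy arrays read 9.56, 9.55, 9.35 and 9.40 and the EAE arrays ran from 9.18 through 9.44 to 9.85, on both sides of the healthy ones. The difference there was -0.00 ± 0.10 (interval -0.23 to 0.23; adjusted p 0.995). The second probe set of Tlr3 gave a motor difference of -0.22 ± 0.15 and a sensory one of -0.15 ± 0.17.

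Tlr7 and Tlr13 recognise single-stranded RNA and bacterial ribosomal RNA in endosomes. For Tlr7 the motor arrays of healthy mice read 7.58, 7.48, 7.69 and 7.49, and those of EAE mice ran from 7.47 through 7.52 to 7.68. The motor groups overlapped almost wholly, with a difference of -0.01 ± 0.06 (interval -0.15 to 0.13). In sensory cortex the healthy arrays read 7.28, 7.20, 7.57 and 7.22 and the EAE arrays 7.44, 7.61, 7.57, 7.37, 7.64 and 7.56. Healthy mouse 3 lay among the EAE mice and the other healthy mice lay below all of them. The difference was 0.21 ± 0.08 (interval 0.03 to 0.40), with an unadjusted p of 0.0283 and an adjusted p of 0.206. The other 2 probe sets of Tlr7 gave 0.12 and 0.13 in motor and 0.06 and 0.12 in sensory cortex, so the contrast between the regions rests on the brightest of 3. Among the healthy mice alone that probe set was higher in motor than in sensory cortex in 4 of 4 mice, by 0.24 (adjusted p 0.0202). Among the EAE mice alone the difference was 0.02 (adjusted p 0.927). Of 18194 genes the fit of healthy mice called 804 higher and 534 lower in motor cortex, and that of EAE mice 389 and 339. The other 2 probe sets of Tlr7 were not tested between the regions.

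Tlr13 had motor values of 7.19, 7.22, 7.21 and 7.34 in healthy mice and from 7.14 through 7.32 to 7.59 in EAE mice. Its sensory values were 7.14, 7.16, 7.39 and 7.07 in healthy mice and ran from 7.16 through 7.33 to 7.54 in EAE mice. EAE mice 5 and 6 were the highest in both regions, and the groups overlapped in both. The differences were 0.13 ± 0.07 (adjusted p 0.432) in motor and 0.16 ± 0.09 (adjusted p 0.385) in sensory cortex.

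Tlr9, the receptor for unmethylated CpG DNA, differed little in motor cortex, where the healthy arrays read 7.66, 7.47, 7.75 and 7.65 and the EAE arrays ran from 7.63 through 7.71 to 7.75. In sensory cortex the healthy arrays read 7.78, 7.34, 7.49 and 7.40 and the EAE arrays 7.61, 7.58, 8.03, 7.58, 7.64 and 7.64. All but 1 of these EAE values lay within the span of the healthy mice, the exception being EAE mouse 3. The differences were 0.06 ± 0.06 (adjusted p 0.661) and 0.18 ± 0.10 (adjusted p 0.389), and the second was 0.11 ± 0.08 without EAE mouse 3. Single healthy mice moved both: the motor difference was 0.01 without healthy mouse 2 and 0.10 without healthy mouse 3, and the sensory one 0.09 without healthy mouse 2 and 0.26 without healthy mouse 1.

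Myd88, the adaptor shared by all these receptors except Tlr3, did not pass in either region. Motor arrays of healthy mice read 9.28, 9.15, 9.26 and 9.09, and those of EAE mice ran from 9.02 through 9.16 to 9.27. Sensory arrays read 9.18, 8.99, 9.21 and 9.13 in healthy mice and from 8.82, in EAE mouse 3, through 9.15 to 9.28 in EAE mice. The differences were -0.05 ± 0.07 (interval -0.20 to 0.10) and -0.01 ± 0.08 (interval -0.20 to 0.17), so these data leave room for a change of about 0.2 either way in sensory cortex. Without EAE mouse 3 the sensory difference was 0.04 ± 0.06 (adjusted p 0.778).

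**Figure D2:**
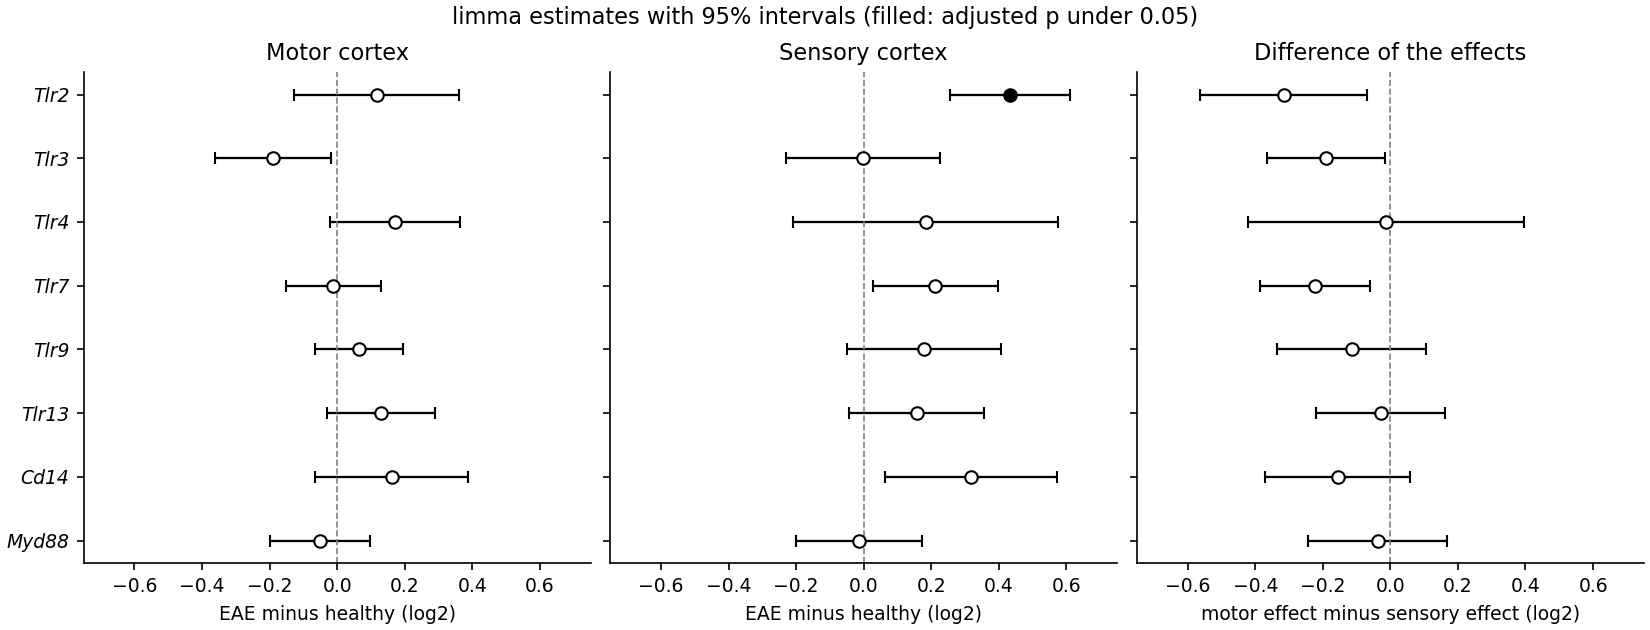
Limma estimates (points, x axis in log2 units) with 95% intervals (bars) for the 8 members: EAE minus healthy in motor cortex, the same in sensory cortex, and the motor effect minus the sensory effect. The filled point, with an adjusted p under 0.05, is that of Tlr2 in sensory cortex at 0.43, and the third panel has all 8 points below 0, of which that of Tlr4 was above 0 without EAE mouse 3 and those of Tlr13 and Myd88 without other single mice.

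Over the 8 members the median difference between EAE and healthy mice was 0.09 in motor and 0.18 in sensory cortex, against -0.01 and 0.00 over all genes. Without EAE mouse 3 the members' median in sensory cortex was 0.12. The estimates were above 0 for 5 members in motor and 6 in sensory cortex, or for 5 and all 8 after quantile normalization of the arrays and also without EAE mouse 3. In motor cortex limma called 0 members, with 1 (Tlr3) at an unadjusted p under 0.05, a level that 15.9% of all genes met there. In sensory cortex 3 were at that level (Tlr2, Tlr7 and Cd14), against 18.5% of all genes. The effect in motor minus that in sensory cortex, tested on each mouse's own difference, was below 0 for all 8 (also after quantile normalization), with a median of -0.13 against -0.01 over all genes. It was also below 0 for all 6 measured perivascular and border macrophage markers (median -0.19) and all 4 measured monocyte markers (-0.28). Its medians over microglial, meningeal, astrocyte and T cell markers were -0.08, -0.14, -0.09 and -0.09. Choroid plexus, neutrophil, dendritic cell and oligodendrocyte markers had medians of -0.05, -0.04, -0.03 and -0.02. B cell, blood, neuronal and endothelial markers had medians of 0.05, 0.02, 0.01 and 0.00. No marker passed that test, and the part of these markers in the members' values was not tested. That of Tlr4, at -0.01, was 0.16 without EAE mouse 3, and those of Tlr13 and Myd88, at -0.03 and -0.04, also changed sign without single mice. No member passed that test, in which 0% of all genes were called. At an unadjusted p under 0.05, which 2.32% of genes met, stood Tlr2 at -0.32 ± 0.11 (p 0.0171), Tlr7 at -0.22 ± 0.07 (p 0.0121) and Tlr3 at -0.19 ± 0.08 (p 0.0356), each with a limma adjusted p of 1.00. So the call of Tlr2 in sensory and not in motor cortex was not shown to be a difference between the regions. The 8 estimates come from the same 10 mice and are not independent of each other.

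**Figure D3:**
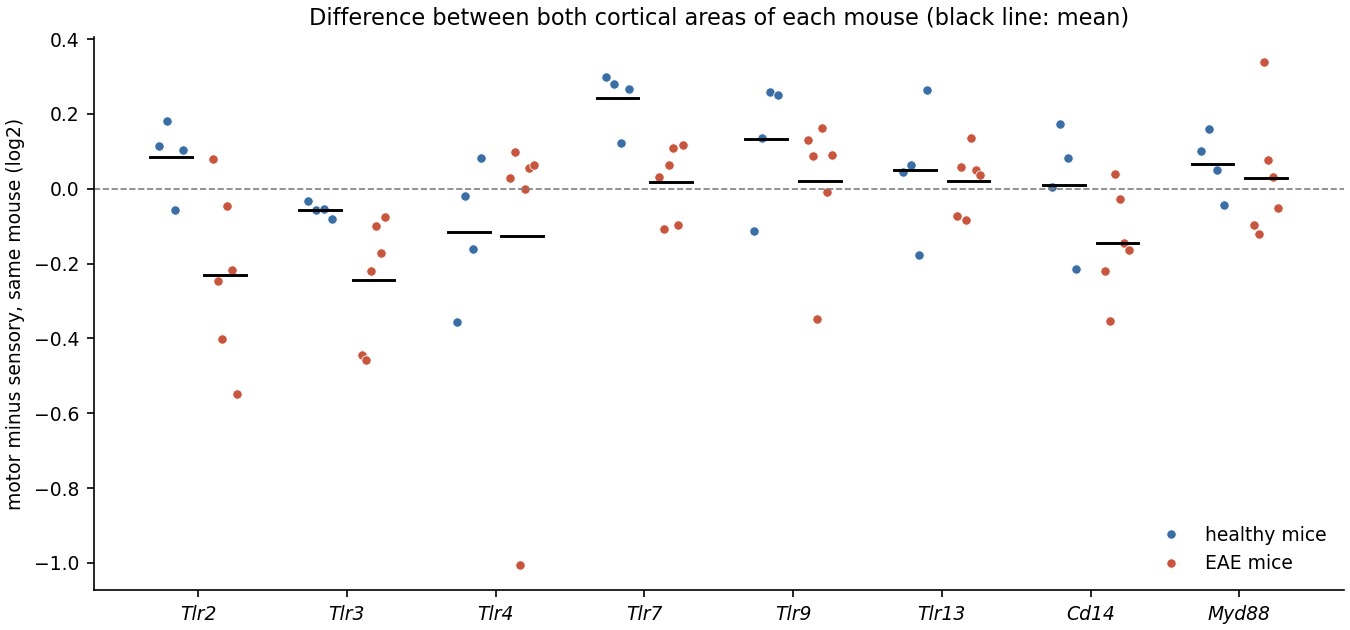
Motor minus sensory log2 expression of each mouse (y axis) for the 8 members (x axis), with points for single mice, blue for 4 healthy and red for 6 EAE mice, and black lines for group means. All 10 points of Tlr3 lie below 0, the 4 healthy points of Tlr7 lie above 0 between 0.12 and 0.30, and the Tlr4 point at -1.01 is EAE mouse 3.

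Ordered by level, the 4 groups of a member mostly ran into each other. For Tlr2 the order was sensory EAE (7.56), motor EAE (7.33), motor healthy (7.21) and sensory healthy (7.13), and no neighbouring pair differed by more than the larger of its SDs. Cd14 had the same order, at 8.96, 8.81, 8.65 and 8.64, also without such a step. For Tlr3 sensory healthy (9.47) and sensory EAE (9.46) were followed by motor healthy (9.41), and the last step to motor EAE (9.22), of 0.19, exceeded the larger SD of 0.14. For Tlr7 motor healthy (7.56), motor EAE (7.55) and sensory EAE (7.53) were followed by sensory healthy (7.32), a step of 0.21 against an SD of 0.17. Tlr4 ran from sensory EAE (7.08) through motor EAE (6.96) and sensory healthy (6.90) to motor healthy (6.79). Tlr9 and Tlr13 were ordered motor EAE, sensory EAE, motor healthy and sensory healthy, from 7.70 to 7.50 and from 7.37 to 7.19, and Myd88 from motor healthy (9.19) to sensory EAE (9.11). In these last 4 members no neighbours differed beyond the larger SD, and in none of the 8 did neighbouring groups lack overlap. The shares of all genes with such a step or without such overlap were not counted, so the order describes the members only.

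Myeloid markers of the tissue also differed between EAE and healthy mice, and not all in 1 direction. Estimates for microglial markers such as P2ry12 and Gpr34 were below 0 for all 11 measured of 12 listed, with medians of -0.40 in motor and -0.32 in sensory cortex, and 4 and 3 of them called lower. After quantile normalization of the arrays 3 were called lower in motor and 1 in sensory cortex, where 2 of the 11 were above 0. Their mean level (the mean of the list's log2 values on an array) ran from 10.1 to 10.2 in motor healthy and 9.49 to 9.72 in motor EAE arrays, and from 9.95 to 10.1 and 9.38 to 9.82 in sensory cortex. Perivascular and border macrophage markers, all 6 measured, had a median of 0.08 with none called in motor and 0.42 with 2 called higher in sensory cortex. These were the mannose receptor gene Mrc1 (0.46 ± 0.08, adjusted p 0.0213) and Ms4a7 (0.40 ± 0.09, adjusted p 0.0481), and their calls were lost in 2 and 9 of the 10 fits that left out a mouse. The mean level of that list was 7.13 to 7.44 in sensory healthy and 7.40 to 7.74 in sensory EAE arrays, and 7.23 to 7.37 and 7.28 to 7.51 in motor cortex. Of 4 measured of 6 monocyte markers 1, F10, was called higher in sensory cortex (adjusted p 0.0444, and 0.0675 after quantile normalization) and 0 in motor cortex, with medians of 0.67 and 0.37. All 4 were above 0 in both regions, from Ccr2 (0.12 in sensory and 0.08 in motor cortex) to Chil3 (1.06 and 0.65). Their mean level was 6.56 to 6.76 in sensory healthy, 7.00 to 8.02 in sensory EAE, 6.60 to 6.79 in motor healthy and 6.94 to 7.44 in motor EAE arrays. Of 8 measured of 10 neutrophil markers 1 was called higher in motor and 0 in sensory cortex, with medians of 0.23 and 0.20, and their mean level was 7.13 to 7.27 in motor healthy, 7.35 to 7.57 in motor EAE, 6.96 to 7.35 in sensory healthy and 7.22 to 7.64 in sensory EAE arrays. RMA values have no zero, so no marker can be said to be at 0. The part of these markers in the values of Tlr2, Cd14 and the other members was not tested.

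The genes around the members in the pathway were described by 8 lists of 114 genes, of which 102 were measured. In motor cortex 6 of them were called higher and 1 lower, and in sensory cortex 5 and 1, which is 5.88% and 0.98% in motor and 4.90% and 0.98% in sensory cortex. Over all genes the shares called higher and lower were 0.517% and 1.74% in motor and 0.901% and 1.51% in sensory cortex. The medians of the 102 genes were 0.09 and 0.11. No other Toll-like receptor, co-receptor or adaptor was called in either region alone, and the calls lay among ligands, transcription factors, feedback regulators, interleukin-1 family receptors and target genes. With both regions averaged 13 were called higher and 2 lower, or 12.7% and 1.96%, against 2.23% and 5.64% of all genes. Of the 13, 1 was the myeloid receptor gene Cd300lf, from the list of co-receptors, chaperones and accessory proteins. The lists were chosen with earlier results of these data known. A larger share called in them than over all genes is therefore no test of the pathway.

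Of the other Toll-like receptors 5 of 6 were measured and none passed. Tlr1 and Tlr6, the partners of Tlr2, stood at 0.24 ± 0.14 (adjusted p 0.427) and 0.10 ± 0.07 (adjusted p 0.497) in motor cortex, and at 0.29 ± 0.14 (adjusted p 0.286) and 0.23 ± 0.09 (adjusted p 0.193) in sensory cortex. Tlr12 stood at 0.11 ± 0.06 in motor cortex, and Tlr8, a further endosomal receptor for RNA, at 0.07 ± 0.06 in sensory cortex. All 5 estimates were above 0 in both regions, with medians of 0.10 and 0.09.

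Among 10 co-receptors, chaperones and accessory proteins none passed in either region, with medians of -0.01 and 0.04. Ly86, which encodes MD-1, the partner of the Tlr4-like receptor RP105, had effects of 0.53 ± 0.21 (motor; adjusted p 0.236) and 0.93 ± 0.22 (sensory; adjusted p 0.0604, and 0.0473 after quantile normalization). The myeloid receptor gene Cd300lf stood at 0.60 ± 0.16 (adjusted p 0.0782) and 0.74 ± 0.18 (adjusted p 0.0599). With both regions averaged it was called, at 0.67 ± 0.16 (adjusted p 0.0309), and after quantile normalization it was not (adjusted p 0.0564). Unc93b1, the chaperone that carries the nucleic acid receptors to endosomes, stood at 0.22 ± 0.07 in sensory cortex (adjusted p 0.128). Lbp, the lipopolysaccharide-binding protein, stood at 0.14 ± 0.07 in motor cortex (adjusted p 0.357). Of the other adaptors and proximal kinases 16 of 21 were measured and none passed, with medians of -0.01 in both regions. The named ones lay between -0.13 and 0.22: Pik3ap1, the adaptor BCAP, had effects of 0.20 ± 0.09 (motor) and 0.15 ± 0.10 (sensory). Tab2 and Sarm1 stood at -0.13 ± 0.06 and -0.09 ± 0.06 in motor cortex, and Peli1 and Ikbke at 0.22 ± 0.08 and 0.16 ± 0.08 in sensory cortex.

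Transcription factors of the pathway had 1 called gene among 12 measured of 13. Cebpd, a C/EBP factor that rises in acute inflammation, rose by 0.79 ± 0.14 in motor cortex (SE, log2; limma adjusted p 0.0115) and stood at 0.85 ± 0.20 in sensory cortex (adjusted p 0.0558, and 0.0455 after quantile normalization). Irf7, the interferon regulatory factor downstream of Tlr7 and Tlr9, stood at 0.33 ± 0.10 (adjusted p 0.114) and 0.62 ± 0.18 (adjusted p 0.116). Junb had a motor effect of 0.33 ± 0.19 and Nfkb2 a sensory effect of 0.15 ± 0.07, neither called. In the list of negative regulators, which also takes in IκB family genes whatever their action, 17 of 18 were measured. Nfkbiz, an NF-kB-induced nuclear IκB protein, rose by 0.42 ± 0.09 in sensory cortex (adjusted p 0.0463), a call lost in 7 of 10 fits that left out a mouse. It is listed by family, and its rise is not read as a brake on the pathway. In motor cortex Nfkbiz stood at 0.30 ± 0.09 (adjusted p 0.132). Nfkbia, the inhibitor of NF-kB that NF-kB itself induces, stood at 0.29 ± 0.09 (adjusted p 0.122) and 0.30 ± 0.08 (adjusted p 0.0958), Bcl3 at 0.33 ± 0.09 in sensory cortex (adjusted p 0.0939) and Nfkbie at -0.21 ± 0.09 in motor cortex (adjusted p 0.272).

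**Figure D4:**
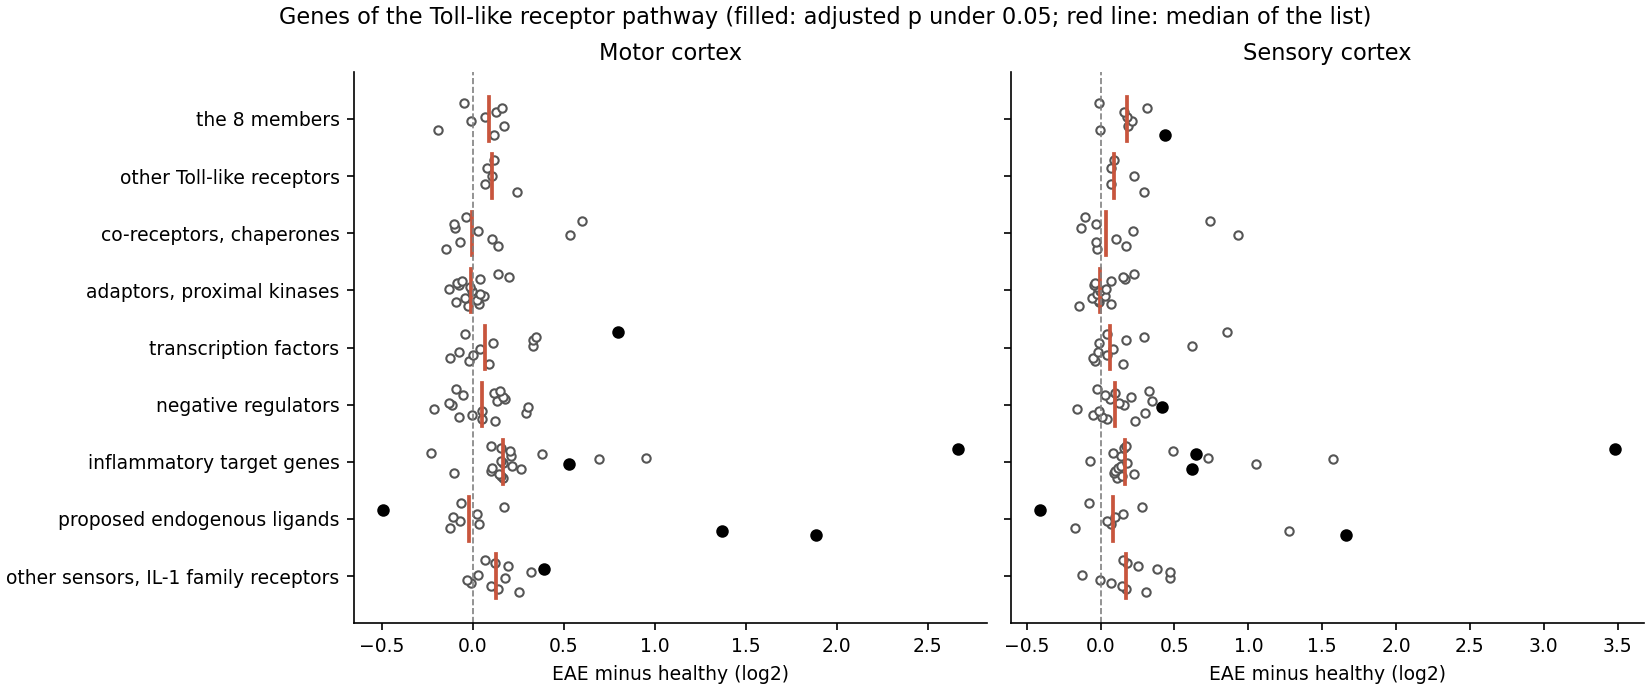
EAE minus healthy log2 differences (x axis) of every measured gene in the members' list and the 8 pathway lists (y axis), in motor and in sensory cortex, with 1 point per gene, filled at an adjusted p under 0.05, and a red line at the list's median. The filled points are Cebpd, Il1r1, Lcn2, Ccl5, S100a8, S100a9 and Tnc in motor cortex, and Tlr2, Nfkbiz, Lcn2, Icam1, Ccl2, S100a8 and Tnc in sensory cortex.

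Inflammatory target genes held the largest values. All 20 were measured, 18 above 0 in motor and 19 in sensory cortex, with medians of 0.16 and 0.17. In motor cortex 2 rose, the siderophore-binding lipocalin gene Lcn2 by 2.67 ± 0.35 (adjusted p 0.00314) and the chemokine gene Ccl5 by 0.53 ± 0.12 (adjusted p 0.0357), the latter call lost in 5 of 10 fits that left out a mouse and after quantile normalization (adjusted p 0.0702). In sensory cortex 3 rose: Lcn2 by 3.48 ± 0.58 (adjusted p 0.0214), the adhesion molecule gene Icam1 by 0.65 ± 0.12 (adjusted p 0.0263) and the monocyte chemokine gene Ccl2 by 0.62 ± 0.11 (adjusted p 0.027). These 3 calls were lost in 4, 7 and 6 of the 10 fits, with adjusted p up to 0.1, 0.117 and 0.108. Icam1 stood at 0.38 ± 0.11 in motor cortex (adjusted p 0.109).

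Proposed endogenous ligands of Tlr2 and Tlr4 went both ways, with 10 of 11 measured. S100a8 and S100a9, which form calprotectin and are made in quantity by neutrophils and monocytes, rose by 1.89 ± 0.14 (adjusted p 5.14e-05) and 1.37 ± 0.17 (adjusted p 0.00248) in motor cortex. In sensory cortex S100a8 rose by 1.66 ± 0.36 (adjusted p 0.0443). The matrix protein gene Tnc fell by 0.50 ± 0.09 in motor (adjusted p 0.0176) and fell by 0.41 ± 0.09 in sensory cortex (adjusted p 0.0491), and Hspd1, a mitochondrial chaperone, stood at -0.17 ± 0.04 in sensory cortex (adjusted p 0.0636). The calls in sensory cortex were lost in 6 of 10 such fits for S100a8 and 9 for Tnc, and that of Tnc in motor cortex in 1, without healthy mouse 2 (adjusted p 0.0523). After quantile normalization both sensory calls were lost as well, with adjusted p of 0.0552 for S100a8 and 0.0615 for Tnc. Of the other innate sensors and interleukin-1 family receptors, which share the TIR domain or the Myd88 route in part, 12 of 15 were measured. Il1r1, the interleukin-1 receptor that also signals through Myd88, rose by 0.39 ± 0.06 in motor cortex (adjusted p 0.00926) and stood at 0.38 ± 0.10 in sensory cortex (adjusted p 0.0803). The β-glucan receptor gene Clec7a stood at 0.32 ± 0.09 and the RNA helicase sensor gene Ddx58 at 0.25 ± 0.08 in motor cortex. Pycard, the inflammasome adaptor, stood at 0.47 ± 0.14 and Il18rap at 0.15 ± 0.06 in sensory cortex.

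For each member the 3 genes with the most similar values over the 20 arrays were found by Pearson correlation over all genes. The arrays include both regions of each mouse and both conditions, and the correlations are descriptions. For Tlr2 they were the chemokine receptor gene Ccr1 (r = 0.84), the phagosomal metal transporter gene Slc11a1 (0.83) and Apobec1 (0.81). The EAE effects on Slc11a1 were 0.23 ± 0.08 (motor) and 0.34 ± 0.11 (sensory), neither of them called. For Cd14 they were the oncostatin M receptor gene Osmr (0.88), Mansc1 (0.86) and the cystatin gene Cstb (0.84), for Tlr3 Xpr1 (0.83), Unc13b (0.81) and Peli2 (0.78), and for Tlr7 Zfp189 (0.81), Rhou (0.76) and Plekhf1 (0.75). For Tlr13 they were the neuronal enolase gene Eno2 (0.87), the death receptor gene Fas (0.84) and Ddit4 (0.82), and for Myd88 the leukocyte genes Cd37 (0.86) and Was (0.80) with Zbed4 (0.82).

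The correlations of Tlr4 and Myd88 with their nearest genes fell most without the sensory array of EAE mouse 3, and those of Tlr9 moved little. For Tlr4 the 3 genes were 1700067K01Rik (0.95), Defb9 (0.90) and Lrrc17 (0.89), and without that array their correlations were 0.82, 0.62 and 0.60. For Tlr9 they were 4933408N05Rik (0.92), Nkx2-5 (0.91) and Ssc4d (0.91), and 0.87, 0.86 and 0.89 without it. For Myd88 the values without it were 0.74 for Cd37, 0.73 for Zbed4 and 0.61 for Was. Between members the correlation was highest for Tlr7 with Tlr13 (0.62, and 0.62 without that array) and lowest for Tlr4 with Myd88 (-0.48), which was 0.18 without it, and that of Tlr4 with Tlr9 went from 0.51 to -0.01. Tlr2 and Cd14 correlated at 0.28, and at 0.43 without it.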

How the data were processed

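The deposited values are log2 expression from 20 Affymetrix arrays of 45101 probe sets, and per the submitters' processing notes they were made with RMA and Partek, whose versions are not given in the sources used here. The RMA step corrects background, equalises arrays and summarises probes, which compresses small differences at low signal. Gene symbols came from the platform annotation: 34958 probe sets had 1 symbol, 932 several and 9211 were not listed or had no symbol. Each of the 18194 genes was taken from its brightest probe set. Groups came from the labels.

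Tests used limma 3.58.1 (R 4.3.3, two-sided, cohort as covariate, the regions fitted apart), and a call is an adjusted p (Benjamini-Hochberg, over all genes) under 0.05; ± after a difference is the SE. The difference between regions was fitted on each mouse's motor minus sensory value, and the comparison of both regions used each mouse as a block. The labels' animal numbers pair the regions of a mouse, and deviations from group means correlated at 0.163 to 0.587 within mice, except for EAE mouse 3 at -0.0316. The same number in both conditions marks unrelated animals. The second processing day holds the motor array of healthy mouse 4 and the sensory array of healthy mouse 1. The fits were tested on simulated data.

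The members and lists were chosen with earlier results of these data known. The text names all 8 members, up to 3 genes of each pathway list with the smallest p in each region, and the 3 genes most correlated with each member; markers named beside them are list members chosen after their values were seen. Of 114 pathway and 84 marker genes 102 and 74 were measured, and the others were not used here. Promoters are from RefSeq (GRCm38.p6), matched by symbol and used for 5 members, and those of Tlr4, Tlr7 and Cd14 were not matched or not used. Alternatives were the probe set rule, quantile normalization, a filter on dim genes, moderation, cohorts, processing day, replicate numbers and each mouse left out. For motor against sensory cortex the probe set rule, moderation and cohorts were not varied. The correlations without 1 array were added after the data were seen.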

Additional observations from a re-analysis of the deposited data

Results flagged for a closer look

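Over the 8 members and 4 groups, 32 groups of values were examined for a single sample far from the rest, which by chance picks about 1 in 20 groups, or 1.6 here, and 4 were found. The motor cortex of EAE mouse 6 had a Tlr2 level of 6.81, while the other EAE mice lay between 7.30 and 7.55. The sensory cortex of EAE mouse 3 had a Tlr4 level of 7.86, against 6.70 to 7.08 in the other EAE mice. The same array had a Tlr9 level of 8.03, against 7.58 to 7.64. The motor cortex of healthy mouse 4, processed on the second day, had a Cd14 level of 8.42, against 8.71 to 8.75 in the other healthy mice.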

How the results depend on the processing

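In motor cortex 410 genes were called, 9 and 16 within cohorts 1 and 2, 194 without the second processing day, and 145 to 470 with 1 mouse left out. In sensory cortex 438 were called: 1015 with all 20 arrays in 1 fit, 260 with all probe sets tested, 795 with dim genes left out, 800 with a trended, robust moderation, 0 and 141 within cohorts, 118 without the second day, and 19 (without healthy mouse 4) to 1009 (without EAE mouse 1). For both regions averaged the 1431 calls became 0 and 574 within cohorts, 6 without the second day and 472 to 1813 with 1 mouse left out. Motor against sensory cortex had 2408 calls, 728 and 1338 within EAE and healthy mice and 1531 without the second day. Quantile normalization changed the split of higher and lower calls from 94 and 316 to 120 and 227 (motor), from 164 and 274 to 193 and 182 (sensory), and from 405 and 1026 to 450 and 603 (both).

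Of the members, Tlr2 alone was called in sensory cortex, and 0 were with all probe sets tested, within either cohort or without the second day; with 1 mouse left out the count was 0 to 2, Cd14 being the further one without EAE mouse 3. For both regions averaged it was 0 to 1. The call of Tlr3 between regions was lost in EAE mice alone, without the second day and with no replicate block (adjusted p 0.132), each with 0 members called. It was also lost in healthy mice alone (adjusted p 0.595), where Tlr7 was the 1 member called. With 1 mouse left out the count was 0 to 1. The replicate block by shared mouse number gave 5 called genes and 0 members in sensory cortex, with Tlr2 at 0.46 (adjusted p 0.173). Deviations of same-numbered EAE and healthy mice correlated at 0.0156 to 0.292 in motor and -0.25 to 0.397 in sensory cortex, so the number did not pair them. It changed no other call of a member.

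Signs turned for these estimates, none of them called. In motor cortex they were Tlr7 (0.078 with probe sets averaged, 0.0039 in cohort 1, and -0.046 to 0.031 with 1 mouse left out), Cd14 and Junb (-0.050 and -0.052 in cohort 1), and Tlr9 and Tlr6 (-0.0011 and -0.0067 in cohort 2). In sensory cortex they were Tlr3 (0.053 after quantile normalization, 0.022 with the replicate block, 0.035 in cohort 1, -0.064 to 0.057 with 1 mouse left out) and Myd88 (0.034 after quantile normalization, 0.021 without the second day, -0.061 to 0.043 with 1 mouse left out). Myd88 averaged over regions was 0.012 after quantile normalization and -0.062 to 0.0024 with 1 mouse left out. For the difference of the effects they were, in cohort 2, Tlr4 (0.079; -0.093 to 0.16 with 1 mouse left out), Tlr13 (0.029; 0.078 without the second day; -0.13 to 0.043) and Myd88 (0.014; -0.10 to 0.0034). Between regions, healthy mice alone had Tlr2 at 0.086 and Cd14 at 0.011. The causes were not tested. With dim genes left out Tlr3 was the 1 member still tested.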
